A study of Mus musculus with 6 samples.

Results

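The genes described here encode the proteins of the mitochondrial ribosome. They were chosen by name: every protein-coding gene of the tables whose symbol is Mrpl or Mrps, a number and at most 1 letter from a to c. This gave 78 of the 41025 genes, 49 named for the large subunit (Mrpl) and 29 for the small subunit (Mrps). The RNA came from the tibialis anterior, a fast muscle at the front of the lower leg, of C57BL/6 mice at 8 weeks of age. There were 6 libraries, 3 with the label wild type and 3 with the label Mettl21e knockout, and the labels name no other allele or treatment. Mettl21e encodes a muscle-enriched protein methyltransferase, and the comparison asks which transcripts differ in muscle without it. The libraries are called WT1 to WT3 and KO1 to KO3 after their label and replicate number. No source used here says how the knockout was made or that each replicate is a separate mouse, so p-values cover only the spread among these libraries.

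Mitochondria make a small set of respiratory chain proteins from their own DNA, on a ribosome of their own. The ribosomal RNA of that particle comes from mitochondrial DNA, whereas all of its proteins are encoded in the nucleus, translated in the cytosol and imported. The small subunit reads the mRNA, and the large subunit joins the amino acids and is held at the inner membrane while the chain emerges. Compared with its bacterial relative the particle has lost RNA and gained proteins that bacteria lack. Skeletal muscle depends on it for the respiratory chain of every fibre type, and several of its genes are mutated in inherited cardiomyopathy or encephalomyopathy.

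Mettl21e itself was not lower in the libraries labelled knockout. It stood at 2.46, 0.309 and 1.23 FPKM in WT1, WT2 and WT3 and at 1.64, 1.45 and 1.88 FPKM in KO1, KO2 and KO3, where FPKM is a fragment count scaled by gene length and library total. The groups overlapped, with a log2 difference of 0.29 (SE 0.31, limma adjusted p = 0.988). Directions below are therefore directions between labels. The libraries held 8476591 to 10856669 fragments, and genes of the mitochondrial genome took 15.2% to 19.7% of them. The summed level of 8 markers of muscle fibres lay between 70216 and 76360 FPKM in the WT libraries and between 69523 and 72376 FPKM in the KO libraries, so the defining genes of the labelled tissue were abundant. Markers of other cells were low but present, none of them at 0 in every library. The sum of 8 fibroblast and matrix genes was 213, 452 and 435 FPKM in WT1 to WT3 and 222, 244 and 311 FPKM in KO1 to KO3, so WT1 stood with the KO libraries there.

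Many of the members start close to the start of a gene on the other strand, called facing here whether the genes diverge or overlap. Of the 78 members, 33 (42.3%) had the start of a protein-coding gene of the other strand within 1000 bases in the GENCODE M21 annotation of mm10, against 10.9% of 21556 protein-coding genes of the tables and 16.8% of the 10732 that were expressed well enough to be tested. With RefSeq starts the shares were 36.2% of 69 members and 14.1% of 8526 tested coding genes. The DNA between the starts is shown for 6 diverging pairs, from RefSeq on build GRCm38.p6 and written 5′ to 3′ towards the member named first: a pair in which both genes are members, 2 pairs whose member stood apart between labels, 2 pairs with matches to activators of mitochondrial genes and the pair of a very abundant member. They lie at chr7:78783090-78783130 (minus strand), chr7:28741822-28741967 (minus), chr17:46646081-46646220 (plus), chr13:99344679-99344785 (plus), chr13:14613038-14613241 (minus) and chr1:37890412-37890476 (plus), in the order of the lines. Capitals mark letters of the motifs named in the next paragraph, on either strand.
Mrpl46 and Mrps11: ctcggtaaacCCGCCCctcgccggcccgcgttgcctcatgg
Mrps12 and Sars2: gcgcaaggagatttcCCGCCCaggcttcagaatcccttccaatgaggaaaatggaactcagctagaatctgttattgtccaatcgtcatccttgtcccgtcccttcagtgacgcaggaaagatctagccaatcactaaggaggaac
Mrpl2 and Klc4: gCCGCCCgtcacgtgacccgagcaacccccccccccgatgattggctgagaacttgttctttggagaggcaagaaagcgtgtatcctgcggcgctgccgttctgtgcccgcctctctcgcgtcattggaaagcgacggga
Mrps27 and Ptcd2: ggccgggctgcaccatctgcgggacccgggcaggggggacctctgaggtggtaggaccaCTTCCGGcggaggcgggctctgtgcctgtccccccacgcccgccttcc
Mrpl32 and Psma2: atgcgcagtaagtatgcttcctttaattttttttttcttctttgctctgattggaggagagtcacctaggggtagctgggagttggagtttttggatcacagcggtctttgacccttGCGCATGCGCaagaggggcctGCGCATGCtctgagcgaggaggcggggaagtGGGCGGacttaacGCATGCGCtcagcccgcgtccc
Mrpl30 and Mitd1: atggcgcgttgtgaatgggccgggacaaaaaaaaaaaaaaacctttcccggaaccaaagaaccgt

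The spans ran from 41 bases between Mrpl46 and Mrps11 to 204 bases between Mrpl32 and Psma2. The capitals are a GC box in the first 3, an ETS match in the span of Mrps27, 3 stretches of NRF1 letters and a GC box in that of Mrpl32, and none in that of Mrpl30. NRF1 and the ETS factor GABPA are transcription factors known for activating nuclear genes of mitochondria. In RefSeq windows from 250 bases before to 50 bases after the start, which 69 members had, the ETS letters CCGGAAG were in 25 (36.2%), against 19.2% of tested coding genes and 9.12% of all 27025 windows. The NRF1 letters GCATGCGC were in 8 (11.6%, against 5.76% and 2.8%). The letters AAGATGGCG of YY1, another factor of mitochondrial genes, were also in 8 (11.6%, against 3.59% and 1.49%). By subunit, the NRF1 letters were in 7 of 43 large-subunit windows (16.3%) and 1 of 26 small-subunit windows (3.85%). The ETS letters were in 14 (32.6%) and 11 (42.3%) of these, and the YY1 letters in 4 (9.3%) and 4 (15.4%). At least 1 of these 3 motifs was in 35 windows (50.7%), against 26.3% of tested coding genes. The GC box GGGCGG went the other way, in 34 member windows (49.3%) against 66.1% of tested coding genes, and TATAAA was in 4 (5.8%, against 6.92%). Both strands were searched, and a match is a description of letters, not of binding.

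The facing pairs held 31 partners that are not members, and the member was the more abundant in 26 of these pairs, with a median ratio of 5.15 in FPKM. In 6 the partner was below 1 FPKM, and in 8 the genes were within 2 times of each other, such as Mrpl18 at 101.1 FPKM and Tcp1 at 98.9 FPKM or Mrpl54 at 54.3 FPKM and Apba3 at 40.7 FPKM. Mrpl30 stood at 130.4 FPKM over the 6 libraries and its neighbour Mitd1 at 2.55 FPKM. Mrpl2 stood at 112.7 FPKM and Klc4, a kinesin light chain, at 11.0 FPKM. The partner was higher in 5 pairs, among them Mrpl36, at 28.6 FPKM beside the complex I gene Ndufs6 at 348.2 FPKM, Mrpl47 at 14.3 FPKM beside the complex I gene Ndufb5 at 262.0 FPKM, and Mrpl49 at 15.6 FPKM beside Fau at 231.7 FPKM. In the pair of 2 members, Mrpl46 and Mrps11 stood at 26.4 and 15.4 FPKM.

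All but 1 of the members were expressed. Mrpl53 (ENSMUSG00000030037) was listed at 0 in all 6 libraries, and 82.0% of the 50-base words of its transcripts are also in Gm42688, which overlaps it on the same strand. The other 77 (48 large, 29 small) were above 0 in every library and passed the filter for testing, a mean of at least 1 FPKM. They rested on 52 to 3381 fragments per library, with a median of 326. They lie on 17 chromosomes, with 11 members on chromosome 11 and 8 on chromosome 17. The median member stood at 29.8 FPKM, the quartiles were 15.7 and 54.0 FPKM, and the highest was 72.3 times the lowest.

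**Figure D1:**
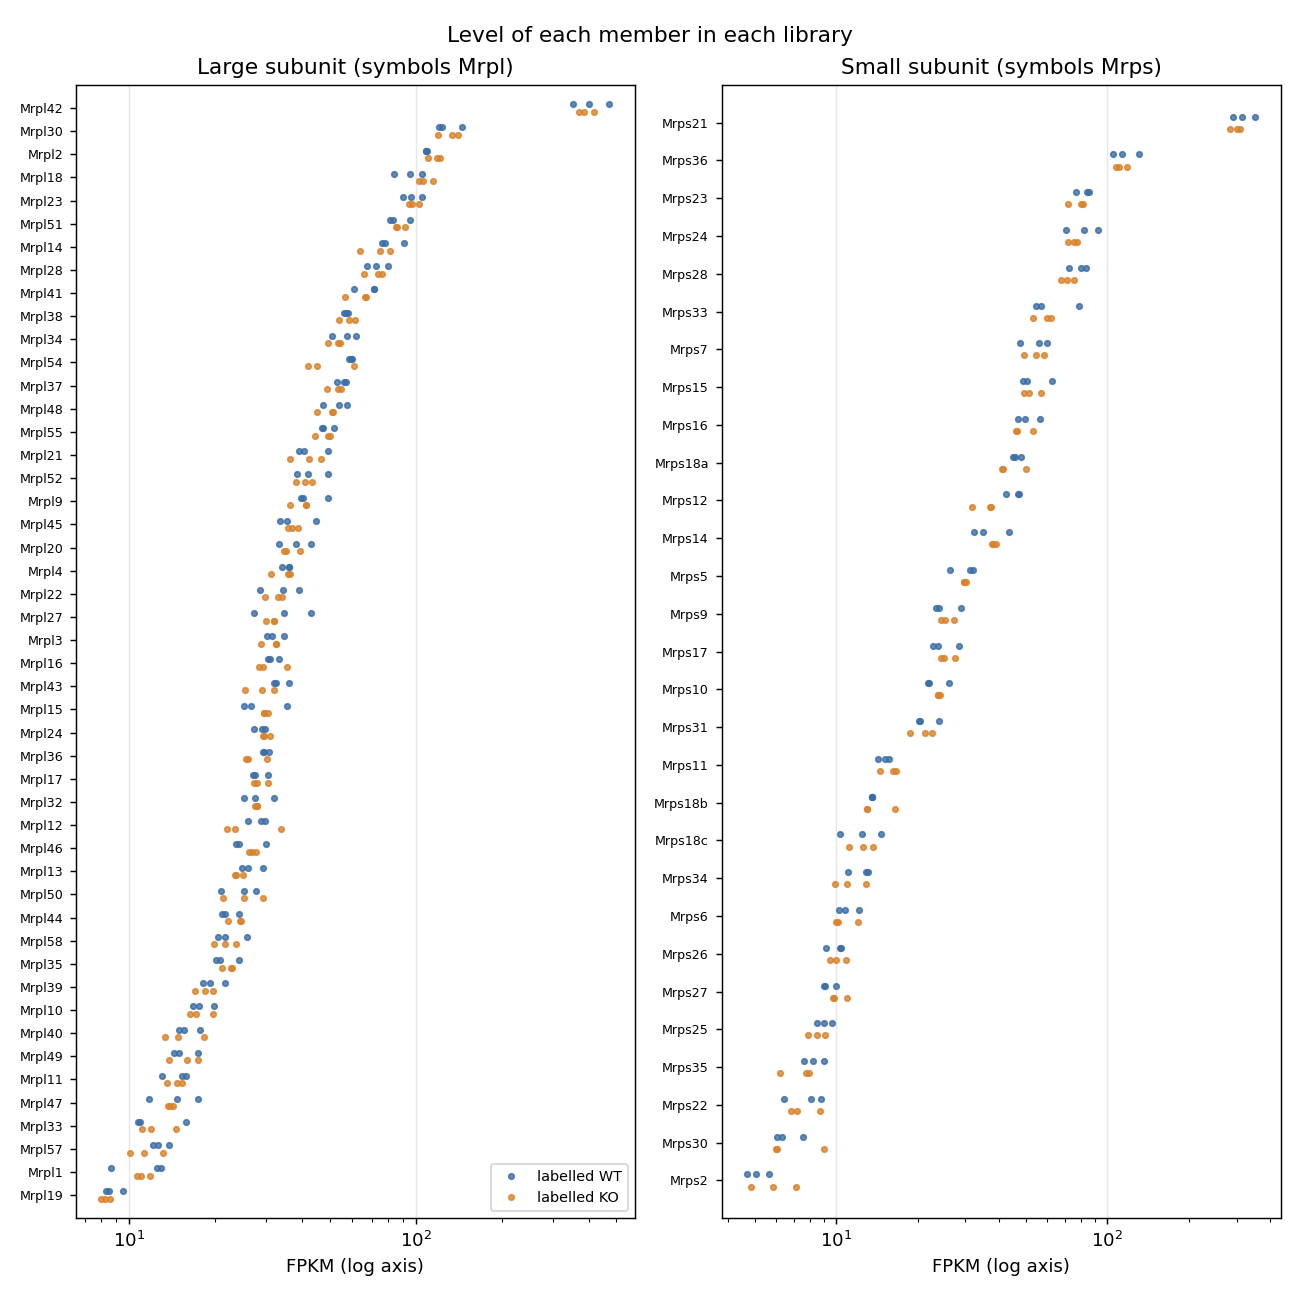
FPKM of the 77 expressed members in each library on a log axis, ordered by mean within the large subunit (left) and the small subunit (right), with 1 point per library labelled WT (blue, upper) or KO (orange, lower). Most members lie between 10 and 100 FPKM, Mrpl42 and Mrps21 stand above the rest of their subunit, and the points of the labels overlap for all but 3 members.

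A single gene led each subunit. Mrpl42, a mitochondria-specific protein of the large subunit (chr10:95480805-95501940, minus strand), stood at 472.1, 353.6 and 402.1 FPKM in WT1 to WT3 and at 371.0, 384.5 and 416.6 FPKM in KO1 to KO3. WT1 was the highest library and WT2 the lowest, and the labels overlapped. Mrps21, the counterpart of bacterial S21 (chr3:95862634-95871519, minus strand), stood at 351.2, 291.8 and 313.1 FPKM in the WT libraries and at 283.4, 302.4 and 309.2 FPKM in the KO libraries. After them in the large subunit came Mrpl30 (130.4 FPKM over the 6 libraries), Mrpl2, which lies beside the peptidyl transferase centre (112.7 FPKM), Mrpl18 of the central protuberance (101.1 FPKM) and Mrpl23 at the tunnel exit (97.6 FPKM). In the small subunit Mrps36 followed at 114.4 FPKM. Its protein is now known as a component of 2-oxoglutarate dehydrogenase. Mrps23, Mrps24 and Mrps28 stood between 75.1 and 80.0 FPKM.

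The lowest members were Mrps2 at 5.53 FPKM, Mrps30 at 6.82 FPKM and Mrps22, a gene mutated in infantile cardiomyopathy, at 7.69 FPKM in the small subunit. In the large subunit they were Mrpl19 at 8.52 FPKM, the stalk protein Mrpl1 at 11.3 FPKM and Mrpl57 at 12.1 FPKM. Most of the proteins are present once per ribosome, in contrast to this range of transcript levels. The order depends on the gene length that stands behind the deposited values, which for 44 of 77 members was under 50% of the annotated exon union. Scaled to the exon union, the Spearman correlation with the FPKM order was 0.828 across members, as a description. Mrps21 then came first, at 166.2 FPKM on that length, followed by Mrps28 at 75.1, Mrpl42 at 72.4 and Mrpl2 at 70.6, and Mrpl23 went from rank 7 to rank 40.

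Summed over members, the large subunit exceeded the small by the same ratio in every library to within a few percent. The large subunit summed to 2568, 2187 and 2284 FPKM in WT1 to WT3 and to 2280, 2279 and 2302 FPKM in KO1 to KO3. The small subunit summed to 1399, 1195 and 1232 FPKM and to 1195, 1233 and 1208 FPKM. WT1 had the highest sum for both, and the other 5 libraries were close together. The ratio of large to small was 1.84 ± 0.0121 (SD, n = 3) in the WT libraries and 1.89 ± 0.0339 in the KO libraries, and the groups overlapped, since KO2 at 1.848 was below WT3 at 1.853. With Mrps18a and Mrps30 counted in the large subunit, where their proteins are known to sit, and Mrps36 left out, the ratio was 2.17 ± 0.00504 and 2.23 ± 0.0486 (SD, n = 3 each). There the groups did not overlap, with 2.178 in KO2 against 2.172 in WT2, a gap smaller than the spread between the KO libraries. Without Mrpl42 and Mrps21 it was 2.03 ± 0.0237 and 2.08 ± 0.0350. Members took 0.354%, 0.304% and 0.313% of the fragments in WT1 to WT3 and 0.315%, 0.315% and 0.314% in KO1 to KO3.

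**Figure D2:**
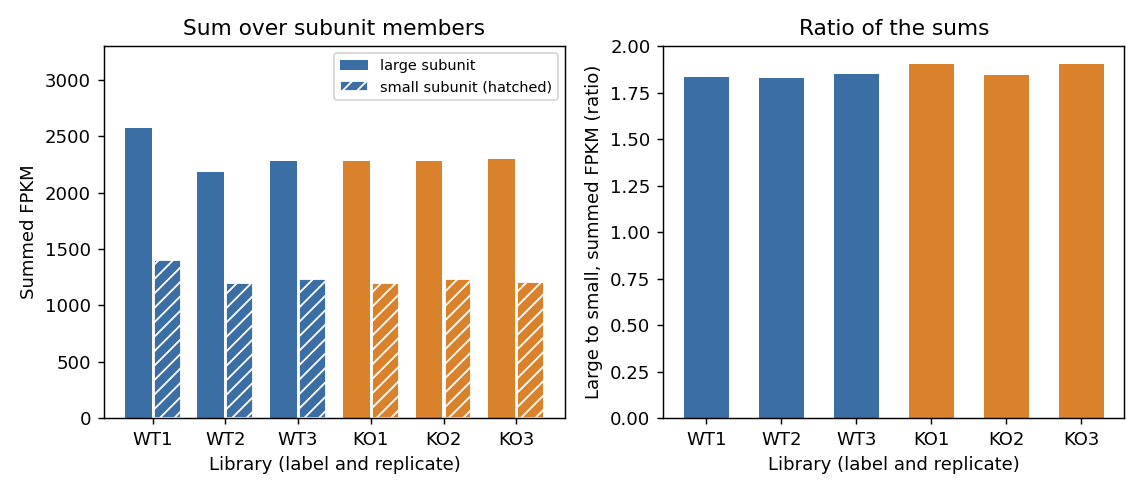
Left, summed FPKM of the large-subunit and small-subunit (hatched) members in each library; right, the ratio of the sums; blue bars are libraries labelled WT and orange bars libraries labelled KO, and both axes start at 0. WT1 reaches 2568 and 1399 FPKM, above the other 5 libraries, and its ratio of 1.84 lies between those of WT2 (1.83) and WT3 (1.85).

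No member differed between the labels after adjustment. Of the 77 tested, 0 had an adjusted p under 0.05 (limma with Benjamini-Hochberg adjustment over 11383 genes, lowest 0.988), and the same test called 0.0% of all genes. At an unadjusted p under 0.05 there was 1 member, against 4.59% of all genes. Log2 differences, KO minus WT on the log2(FPKM + 1) scale, ran from -0.36 for Mrps12 to 0.19 for Mrpl18. The 95% interval of each of the 77 differences lay inside a 1.5-fold change in either direction, each taken alone. This count was chosen after the values were seen, and it was 75 to 77 under the alternatives. Inside a narrower 1.25-fold change lay 45 of the 77 intervals, and 21 to 54 under the alternatives. In bulk muscle, fewer cells of a type and less RNA per cell cannot be told apart.

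The members leaned slightly lower in the KO libraries, and that lean rested on WT1. With all 6 libraries 26 of 77 were higher in KO (33.8%, against 43.3% of all genes), 15 of 48 in the large subunit and 11 of 29 in the small. The median log2 difference was -0.04 for the large subunit, -0.03 for the small and -0.02 for all genes tested. Without WT1, 49 of 77 were higher in KO (63.6%, against 42.0% of all genes). The medians were then 0.03 for the large subunit, 0.05 for the small and -0.04 for all genes. Without WT2, 17 were higher (22.1%, against 45.2% of all genes). Subtracting each library's median over all genes gave 43 higher (55.8%, against 56.8% of all genes), so no direction can be given for the members as a group. With Mrps18a and Mrps30 counted in the large subunit and Mrps36 left out, the members were also split by origin. Proteins with a bacterial counterpart had 9 higher and 21 lower and mitochondria-specific ones 7 higher and 13 lower in the large subunit, and in the small subunit the counts were 7 higher and 9 lower against 3 higher and 7 lower.

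**Figure D3:**
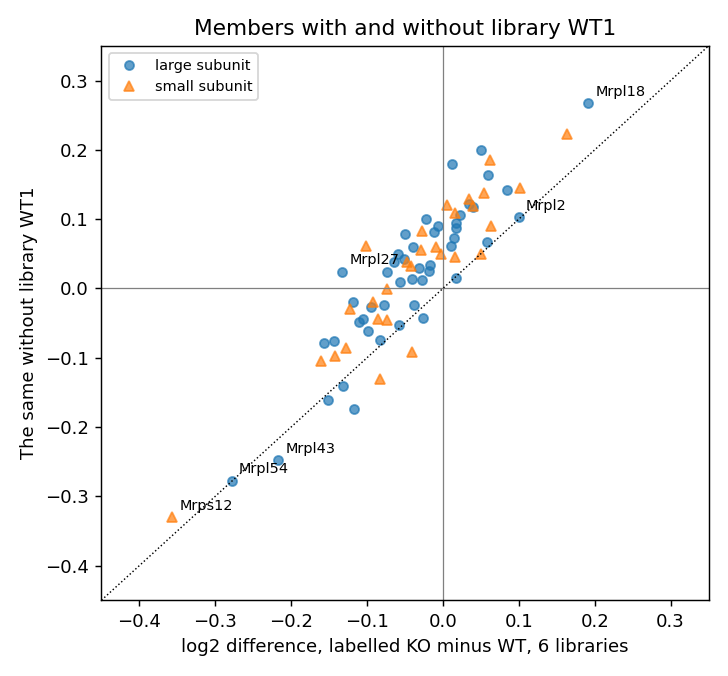
Log2 difference between labels (KO minus WT, log2(FPKM + 1) scale) of each of the 77 members with all 6 libraries (horizontal) and without WT1 (vertical), circles for the large and triangles for the small subunit, with the dotted line where both are equal. Most points lie above the line, and the number above 0 goes from 26 to 49, while Mrps12, Mrpl54 and Mrpl43 stay lower and Mrpl18 and Mrpl2 stay higher.

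WT1 was the highest of the 6 libraries for 48 of the 77 members (62.3%), against 17.3% of all genes tested, and the lowest for none. Members in WT1 stood a median of 13.6% above the mean of the other 5 libraries, with a range from -7.36% to 38.1%, and 69 of 77 were above it, while the median gene was at -2.32%. The 2 members farthest above were Mrpl27, at 43.0 FPKM in WT1 against 27.3 to 34.5 FPKM elsewhere, and Mrps33, at 78.5 FPKM against 53.1 to 61.8 FPKM. After median subtraction the count was 52 (67.5%, against 21.0% of all genes). Both subunits had it, with 28 of 48 large and 20 of 29 small members. Other gene families shared it, since WT1 was also highest for 46 of 80 cytosolic ribosomal protein genes (57.5%) and 25 of 37 nuclear complex I genes (67.6%). The lists around mitochondrial translation were nearer to the share of all genes, with 6 of 27 assembly factors (22.2%), 3 of 13 translation factors (23.1%), 5 of 20 synthetase genes and 4 of 18 genes of mitochondrial DNA expression (22.2%), and WT1 was highest for 0 of the 13 proteins encoded there. Of the 25 tested facing partners that are not members, 4 were highest in WT1. These differences between lists were not tested.

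Other measures set WT1 apart from WT2 and WT3 but less so from the KO libraries. Leukocyte markers summed to 30.5, 73.5 and 64.7 FPKM in WT1 to WT3 and to 30.0, 28.8 and 37.7 FPKM in KO1 to KO3. Endothelial markers summed to 141, 211 and 192 FPKM and to 176, 148 and 186 FPKM. WT1 had the lowest endothelial and fibroblast sums of the 6, while its leukocyte sum lay within the range of the KO libraries. Muscle fibre markers summed to 76360 FPKM in WT1, the highest of the 6. Members highest in WT1 had a median transcript GC content of 48.9%, and the others 52.1%. Across members, the Spearman correlation of the deviation from the 6-library mean with GC was -0.262, 0.406 and 0.177 in WT1 to WT3. In KO1 to KO3 it was 0.201, -0.143 and -0.276. Across all genes it was -0.122, 0.295 and 0.124 in the WT libraries and 0.2, -0.209 and -0.322 in the KO libraries. The correlation with the gene length behind the FPKM was -0.221, 0.0987 and 0.0319 across all genes in WT1 to WT3. In KO1 to KO3 it was 0.124, 0.0171 and -0.0279. Across members the length correlation was -0.143, 0.00248 and -0.151 in WT1 to WT3 and 0.236, -0.0426 and -0.0327 in KO1 to KO3. These correlations are given as descriptions of values that share a library. The part of these measures in the members' levels was not tested.

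**Figure D4:**
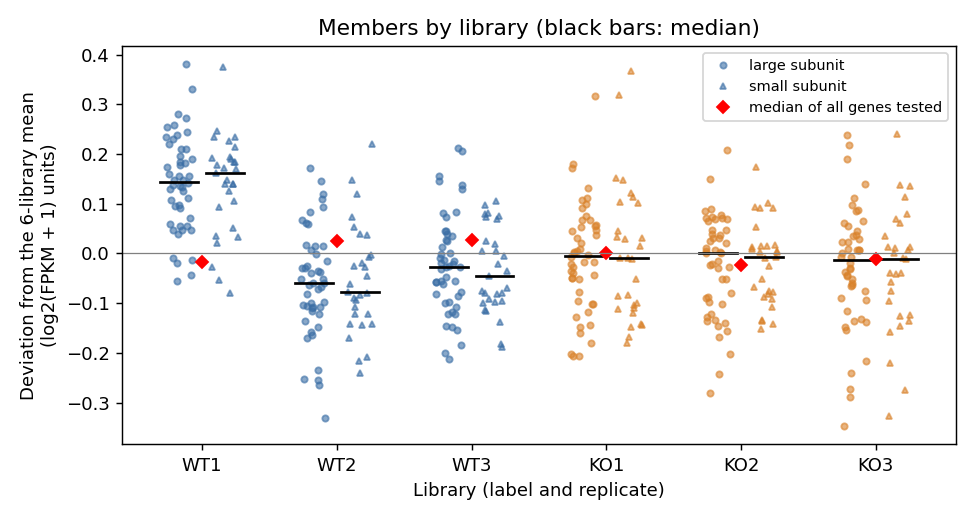
Deviation of each of the 77 members from its own mean over the 6 libraries, in log2(FPKM + 1) units, by library, with circles for the large and triangles for the small subunit, black bars for their medians and red diamonds for the median of all genes tested. In WT1 the members' median is 0.15 while that of all genes is -0.02, and in WT2 and WT3 the members are at -0.06 and -0.03 while all genes are at 0.03 in each.

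Mrps12 stood farthest apart between labels. It encodes the counterpart of bacterial S12, a protein of the decoding site (ENSMUSG00000045948, chr7:28739641-28741820 in mm10, minus strand, 3 exon blocks). It was at 47.3, 46.8 and 42.5 FPKM in WT1 to WT3 and at 37.3, 37.1 and 31.7 FPKM in KO1 to KO3. Every KO library was below every WT library. The log2 difference was -0.36 (SE 0.095, unadjusted p = 0.0051, limma adjusted p = 0.988), and the unadjusted p stayed between 0.0044 and 0.021 under the 17 alternatives, with adjusted p from 0.283 to 1.0. Sars2, the mitochondrial seryl-tRNA synthetase that starts 172 bases away on the other strand, was at 8.33, 8.25 and 7.52 FPKM in the WT libraries and 11.0, 7.48 and 6.67 FPKM in the KO libraries, with a log2 difference of 0.03. No annotated gene overlaps Mrps12, and none of its 50-base words is shared.

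Only 2 other members had labels that did not overlap. Groups did not overlap for 2 members in the lower direction (Mrps12 and Mrpl43), against 5.64% of all genes, and for 1 in the higher direction (Mrpl2), against 3.84%. Mrpl43, a mitochondria-specific large-subunit protein, was at 32.0, 32.4 and 36.0 FPKM in WT1 to WT3 and at 31.9, 25.3 and 29.0 FPKM in KO1 to KO3. WT1 and KO1 were next to each other, and limma gave a log2 difference of -0.22 (SE 0.11, adjusted p = 0.988). Its value is uncertain, since the gene overlaps Twnk, the mitochondrial DNA helicase, which lies on the opposite strand. Mrpl2 was at 109.2, 108.7 and 108.3 FPKM in WT1 to WT3 and at 121.4, 118.3 and 110.4 FPKM in KO1 to KO3, with KO3 just above the WT libraries, and overlaps Gm26904 on its own strand. Its log2 difference was 0.10 (SE 0.072, limma adjusted p = 0.988).

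**Figure D5:**
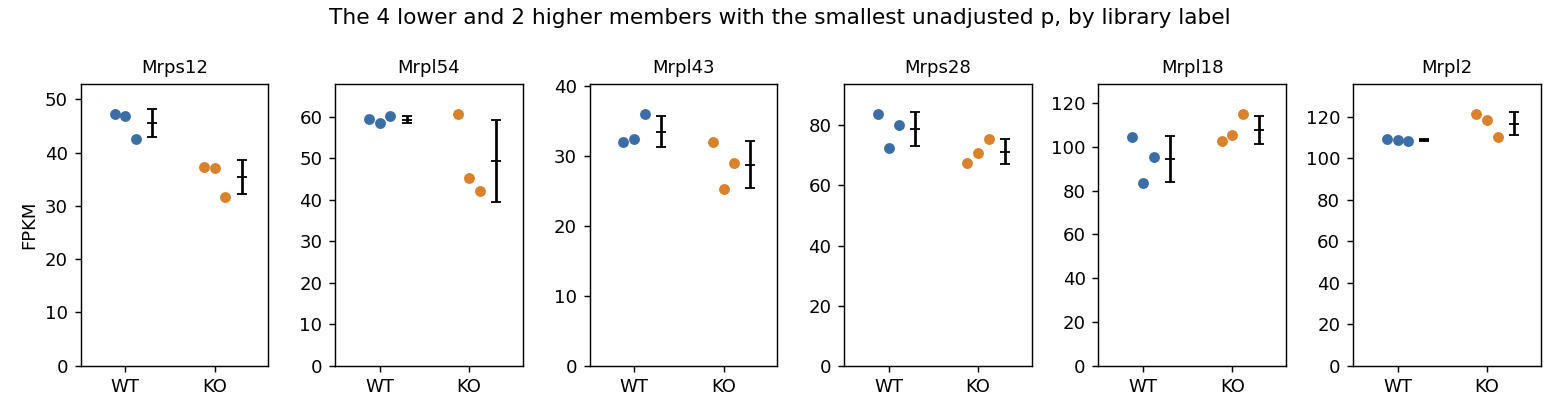
FPKM in the 3 libraries of each label (points, WT blue and KO orange, in replicate order) with mean and SD (black), for Mrps12, Mrpl54, Mrpl43, Mrps28, Mrpl18 and Mrpl2, on axes that start at 0. The points of the labels are apart for Mrps12, Mrpl43 and Mrpl2 and overlap for the other 3, and KO1 of Mrpl54 is as high as the WT libraries.

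The other members with small unadjusted p had labels that overlapped. Mrpl54, a mitochondria-specific large-subunit protein, was at 59.4, 58.5 and 60.0 FPKM in WT1 to WT3 and at 60.7, 45.3 and 42.0 FPKM in KO1 to KO3. KO1 was the highest of all 6, and the difference was -0.28 (SE 0.13). Its neighbour Apba3, which starts 26 bases away, was at 42.4, 42.6 and 43.6 FPKM and at 44.2, 34.6 and 36.5 FPKM, also with KO1 highest. Mrpl18 was at 104.6, 83.6 and 95.3 FPKM in the WT libraries and at 102.8, 105.4 and 115.0 FPKM in the KO libraries, a difference of 0.19 (SE 0.099), and overlaps the chaperonin gene Tcp1 on the other strand. Tcp1 was at 92.5, 90.8 and 94.6 FPKM and at 94.5, 109.5 and 111.1 FPKM. How reads of the overlapping stretch were assigned is not known. Mrps28 was at 78.9 ± 5.75 FPKM in the WT libraries and 71.3 ± 4.01 FPKM in the KO libraries (SD, n = 3), and Mrpl13 at 26.7 ± 2.41 and 24.0 ± 0.779 FPKM. Higher in KO by small margins were Mrps2 (5.14 ± 0.481 and 5.93 ± 1.13 FPKM), Mrps27 (9.40 ± 0.536 and 10.2 ± 0.658 FPKM) and Mrpl44 (22.3 ± 1.66 and 23.7 ± 1.34 FPKM), none of them past the test.

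Apart from Mrps12 at the decoding site and Mrpl2 beside the peptidyl transferase centre, given above, 7 members of the stalk, the tunnel exit and other active sites were followed. In the stalk that binds translation factors, Mrpl12 was at 28.2 ± 2.02 FPKM in the WT libraries and 26.4 ± 6.53 FPKM in the KO libraries (SD, n = 3), with KO1 at 33.9 and KO3 at 22.0 FPKM. Mrpl10, which anchors Mrpl12, was at 18.0 ± 1.58 and 17.7 ± 1.72 FPKM, and Mrpl11 at the stalk base was at 14.7 ± 1.45 and 14.5 ± 0.920 FPKM. The spread of Mrpl12 between KO libraries was wider than that of its 2 partners. At the tunnel exit, Mrpl23 was at 97.1 ± 7.43 and 98.0 ± 4.03 FPKM, and Mrpl45, which tethers the ribosome to the inner membrane, at 38.0 ± 6.00 and 37.1 ± 1.51 FPKM. Mrpl58, a peptidyl-tRNA hydrolase that became a ribosomal protein, was at 22.6 ± 2.77 and 21.7 ± 1.92 FPKM. Mrps5, of the region where the mRNA enters, was at 29.9 ± 3.11 and 29.7 ± 0.280 FPKM. For each of these 7 the difference between labels was smaller than the larger of its 2 SDs.

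Members linked to inherited disease did not differ past the test either. Mrpl3 was at 32.1 ± 2.27 FPKM in the WT libraries and 31.2 ± 2.16 FPKM in the KO libraries (SD, n = 3), Mrps16 at 51.2 ± 4.95 and 48.6 ± 3.99 FPKM, Mrps22 at 7.79 ± 1.22 and 7.59 ± 1.02 FPKM, and Mrps34 at 12.3 ± 1.10 and 11.2 ± 1.48 FPKM. Mrps34 is uncertain, since 34.2% of its 50-base words are shared, most with Nme3 on the same strand. The 3 paralogs of Mrps18 differ in place as well as level: Mrps18a sits in the large subunit, the other two in the small. Mrps18a was at 46.2 ± 1.66 and 44.1 ± 5.28 FPKM, Mrps18b at 13.6 ± 0.0273 and 14.2 ± 2.04 FPKM, and Mrps18c at 12.5 ± 2.17 and 12.4 ± 1.30 FPKM. Mrps18a was thus more than 2 times as high as either paralog in every library, while Mrps18b and Mrps18c overlapped. Scaled to the exon union, Mrps18a ranked 43, Mrps18c 63 and Mrps18b 67 among the 77. Mrps30, the other protein named for the small subunit that sits in the large, was at 7.55, 6.31 and 6.05 FPKM in WT1 to WT3 and 9.00, 6.03 and 6.01 FPKM in KO1 to KO3.

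Spread between libraries of a label was small. The coefficient of variation within labels had a median of 9.29% over members, of which counting alone would give 5.58%. For the 8505 tested genes with mean fragments in the range of the members, the values were 10.7% and 6.51%. Depth was not matched within that range. The coefficient was under 10% for 45 of 77 members and above 20% for none. The steadiest over the 6 libraries were Mrpl24 (4.15%), Mrpl38 (4.19%) and Mrpl2 (5.02%), and the most variable Mrps30 (17.9%), Mrpl33 (17.2%) and Mrpl27 (16.3%). Some values carry more doubt than their spread shows. Over 10% of the 50-base words of 12 members are shared with other genes, among them Mrpl27 (22.3%), Mrps18c (19.2%), Mrps36 (17.3%), Mrps18b (14.6%), Mrps24 (11.8%) and Mrpl23 (11.6%), and 42 members overlap another gene on either strand, as Mrps28, Mrpl13, Mrpl44 and Mrps27 do. The order of members was nearly the same in every library, with Pearson correlations across members of 0.985 to 0.995 over the 15 pairs of libraries, which share gene lengths and are given as a description.

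Other genes of mitochondrial translation were described from lists by role, and none of their members passed the adjusted test. Of 5 mitoribosomal proteins whose symbols fall outside the naming pattern, 2 were higher and 3 lower in KO, among them Chchd1 at 134.7 ± 15.0 FPKM in the WT libraries and 120.2 ± 1.88 FPKM in the KO libraries (SD, n = 3) and Ptcd3 at 57.9 ± 6.08 and 60.7 ± 3.54 FPKM. Of 27 tested assembly and rRNA modification factors 13 were higher and 14 lower, with a median log2 difference of -0.04. Grsf1, a protein of mitochondrial RNA granules, was the most abundant of them at 109.0 ± 2.21 and 114.0 ± 6.45 FPKM. The GTPase Noa1 was at 10.2 ± 0.108 and 12.4 ± 0.655 FPKM, a log2 difference of 0.27 with labels that did not overlap. Tfb1m, the dimethyltransferase of the small rRNA, was at 5.03 ± 0.652 and 3.52 ± 0.851 FPKM, a difference of -0.43, also without overlap. Both had limma adjusted p = 0.988. Among the 27 assembly factors, labels did not overlap for 3 in the higher direction, against 3.84% of all genes, and for 4 in the lower, against 5.64%.

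Of 13 tested translation factors 6 were higher and 7 lower, with the elongation factor Tufm at 129.1 ± 5.18 and 130.7 ± 13.8 FPKM. Of 20 mitochondrial aminoacyl-tRNA synthetase and amidotransferase genes 10 were higher and 10 lower. An unadjusted p under 0.05 was found for 3 of them in mixed directions, against 4.59% of all genes. The arginyl-tRNA synthetase Rars2 was at 15.5 ± 1.05 and 20.3 ± 1.77 FPKM (log2 difference 0.36, limma adjusted p = 0.988), and the valyl-tRNA synthetase Vars2 at 10.4 ± 0.874 and 8.35 ± 0.959 FPKM (log2 difference -0.29). Of 18 genes of mitochondrial DNA expression and its regulators 9 were higher and 9 lower. These include the factors whose letters were searched in the promoters: Nrf1 was at 6.77 ± 0.912 and 5.43 ± 0.665 FPKM, Gabpa at 18.2 ± 0.191 and 18.4 ± 1.21 FPKM, and Yy1 at 20.4 ± 2.30 and 19.8 ± 1.35 FPKM. Of the 13 proteins that this ribosome makes, 9 of their transcripts were higher and 4 lower, with mt-Co1 at 38138 ± 2742 and 39819 ± 4644 FPKM. The lower ones were mt-Atp8, mt-Co2, mt-Co3 and mt-Nd4l, far less abundant in these values than mt-Co1. Low values were not particular to them: mt-Atp6 (113.7 FPKM over the 6 libraries) and mt-Nd3 (881.7 FPKM) were among the higher ones. Over the libraries mt-Nd4l ran from 0.397 to 54.3 FPKM, mt-Co3 from 13.3 to 167.2 FPKM and mt-Co2 from 34.7 to 257.9 FPKM, so their directions are uncertain. Mitochondrial rRNA was not analysed here.

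Genes of slow fibres were ordered differently over the libraries. All 13 of a list of slow and oxidative fibre genes were lower in KO, against 6450 of the 11383 genes tested. At an unadjusted p under 0.05 there were 9, against 4.59% of all genes, and 0 were past the adjusted test. The median log2 difference of the list was -0.95, beside -0.04 for the 77 members. Per library, the mean deviation of the slow fibre list was 0.48, 1.01 and -0.01 in WT1 to WT3 and -0.48, -0.21 and -0.79 in KO1 to KO3. That of the members was 0.14, -0.06 and -0.03 in WT1 to WT3 and -0.01, -0.02 and -0.03 in KO1 to KO3. WT2 was thus the highest library for the slow fibre list and the lowest for the members, while WT1 was above WT3 and the KO libraries in both. The part of fibre type in the members' levels was not tested.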

How the data were processed

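RNA was measured in 6 libraries of mouse tibialis anterior, grouped by the labels' titles. The tools named, per the submitters' processing notes, are TopHat2 2.1.1 and Cufflinks 2.2.1, on build mm10. Annotation release, strand handling and the role of each tool are not stated in those sources. The authors deposited FPKM per gene, 1 table per library, so length and library total are already divided out. Fragment counts were recovered as whole multiples for all 23559 genes above 0 (tolerance 0.002 of a fragment), with 1 fragment on 1 kb worth 0.0921 to 0.118 FPKM. Differences were tested with limma 3.58.1 (R 4.3.3, mean-variance trend) on log2(FPKM + 1) over 11383 genes averaging 1 FPKM or more, with Benjamini-Hochberg adjustment and a threshold of 0.05. The test was also run on simulated data. The changes set there were larger than any difference of the members, so that run does not cover differences of their size. Log2 differences on this scale understate changes of low genes.

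Symbols, positions, overlaps and shared 50-base words came from GENCODE M21 (mm10), promoter windows from RefSeq (GRCm38.p6, matched by symbol for 69 of 78 members). Where strand is unknown, a gene and its overlapping partner on the other strand cannot be told apart, which holds for 36 members. Another 6 overlap a gene on the same strand only. No 2 libraries agreed within sampling noise.

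The members, lists and tests were chosen with earlier results of these data known. Members named are, per subunit, the 5 highest and 3 lowest; the 5 higher and 5 lower in KO with the smallest unadjusted p; landmark members; and the 3 most and 3 least variable. From other lists the 2 most abundant and the 2 of smallest p could be named, and genes outside this, such as facing partners, were chosen after their values were seen. Alternatives were other pseudocounts (0.1, 0.01), filters, scalings, a replicate block, library weights, limma voom on recovered fragments and leaving out each library. Other computing used numpy 2.4.6, pandas 2.3.3 and matplotlib 3.10.9 under Python 3.11.15.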

Additional observations from a re-analysis of the deposited data

How the results depend on the processing

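Under 17 alternatives 0 members were called, and the lowest adjusted p was 0.283 (limma). Over all genes tested, 1 was called without WT1, 3 without WT3, 1 without KO3 and 0 under each other alternative. The count of members higher in KO moved from 26 to 43 with library medians subtracted and 42 with library weights. With 1 library left out it ranged from 17 (without WT2) to 49 (without WT1). Beside these member counts, the share of all genes higher in KO moved from 43.3% to 56.8% and 41.4%. It was 45.2% without WT2 and 42.0% without WT1. The count at an unadjusted p under 0.05 moved from 1 to 2 with quantile normalization and 4 with library weights, and ranged from 1 to 4 with 1 library left out (3 without WT1, 3 without WT2, 4 without KO1). The share of all genes at that p moved too, from 4.59% to 4.78% with quantile normalization, 12.4% with library weights, 11.9% without WT1, 3.13% without WT2 and 5.86% without KO1. A replicate block left 0 members called, 1 at unadjusted p under 0.05 and 26 higher. Over all genes it left 0 called, 4.15% at that p and 43.3% higher. Deviations of same-numbered libraries correlated at 0.024, -0.041 and 0.023, so the numbers were not taken as pairs. Of the values of the 38 named members under these settings, 580 kept their direction and 66 turned, and 19 members kept theirs throughout. The log2 differences that turned were as follows. With library medians subtracted they were Mrpl1 0.0405, Mrps22 0.0174, Mrpl10 0.0202, Mrpl11 0.0299, Mrpl45 0.0251, Mrps5 0.0447, Mrpl3 0.0063. With quantile normalization they were Mrpl1 0.0396, Mrps22 0.0184, Mrpl11 0.0082, Mrpl45 0.0048, Mrps5 0.0246. Scaled to nuclear genes they were Mrpl1 0.0096, Mrps5 0.0148. With library weights they were Mrpl1 0.0243, Mrps36 0.0408, Mrps22 0.0521, Mrpl11 0.0634, Mrpl45 0.0558, Mrps5 0.0102, Mrps16 0.0020, Mrpl38 -0.0111. With voom on recovered fragments they were Mrpl1 0.0026, Mrps5 0.0001, Mrpl33 -0.0047. With 1 library left out the members that turned had values of Mrpl23 -0.0358 to 0.0723, Mrpl30 -0.0279 to 0.1055, Mrpl42 -0.1587 to 0.0493, Mrpl1 -0.1740 to 0.0896, Mrps36 -0.1175 to 0.0375, Mrps30 -0.1164 to 0.1402, Mrps22 -0.1449 to 0.0555, Mrpl10 -0.0994 to 0.0391, Mrpl11 -0.0945 to 0.0342, Mrpl45 -0.1041 to 0.1002, Mrpl58 -0.1170 to 0.0419, Mrps5 -0.0881 to 0.0495, Mrps18b -0.0582 to 0.1053, Mrps18c -0.1139 to 0.1204, Mrpl3 -0.0799 to 0.0163, Mrpl27 -0.2936 to 0.0243, Mrpl33 -0.0938 to 0.1801, Mrpl38 -0.0239 to 0.0653. The cause was not tested. The 77 members were kept for a mean of at least 1 FPKM, so their detection cannot show whether depth was enough. Their lowest count in a library was 52 fragments. The gene lengths behind the deposited values limit their order: Mrpl42 moves from rank 1 to 3 and Mrps21 from 2 to 1 on exon-union length.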
